A study of Mus musculus with 3 samples.

Results

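Small nucleolar RNAs (snoRNAs) and small Cajal body RNAs (scaRNAs) were examined across the 3 libraries of a study of mouse CD4+ T cells. Members were the gene rows whose symbol starts with Snord, Snora or Scarna and a digit. Of 23337 gene symbols 118 qualified: 73 C/D box (Snord), 36 H/ACA (Snora) and 9 Cajal body (Scarna) symbols. They came from 130 rows. For 5 of the symbols, which had more than 1 row, the most abundant row over the 3 libraries stands for the symbol. Snord116 alone had 8 such rows.

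The cells were CD4+ T cells labelled Th1, the helper subset that makes interferon gamma, and the mice were wild-type C57/Bl6j animals of 7 weeks. The lymphoid group had 2 libraries, titled as spleen, though their tissue label adds lymph nodes and draining lymph nodes. The tumour group had 1 library, from tumours of B16-F10, a mouse melanoma line of the same strain. No label ties the libraries to separate animals, so the p-values reflect only how these libraries spread, and that spread may be technical. In bulk RNA, fewer cells of a type and less RNA per cell cannot be told apart.

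Both classes of snoRNA guide chemical changes to other RNAs by base pairing. C/D box snoRNAs carry the short C and D boxes and direct fibrillarin to methylate the ribose of ribosomal RNA. H/ACA snoRNAs fold into hairpins joined by an H box, end in an ACA box and direct dyskerin to turn uridine into pseudouridine. Scarnas do the same for spliceosomal RNAs in the Cajal body. In mammals most are cut from introns of host genes, many of which encode ribosomal proteins or translation factors, and a few snoRNAs are needed for cutting the ribosomal precursor rather than for modifying it.

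Sequences are shown for 7 members on which the results turn, as DNA letters from GENCODE release M21 transcripts (GRCm38). Capitals mark the C box TGATGA and the D box CTGA in Snord members, and in the others the match to the H box ANANNA nearest the middle and the ACA near the 3′ end. The first is the most abundant member, the next 3 are the Snord members whose small fragment numbers or differences are described below, and the last 3 stand for the other classes.
Snord33: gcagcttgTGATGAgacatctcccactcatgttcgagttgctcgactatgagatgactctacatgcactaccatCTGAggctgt
Snord52: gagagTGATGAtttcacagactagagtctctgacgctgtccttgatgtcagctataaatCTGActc
Snord90: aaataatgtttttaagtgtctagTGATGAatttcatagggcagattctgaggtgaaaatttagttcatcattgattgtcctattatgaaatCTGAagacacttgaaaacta
Snord92: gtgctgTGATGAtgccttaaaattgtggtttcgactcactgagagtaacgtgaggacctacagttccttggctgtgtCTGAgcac
Snora28: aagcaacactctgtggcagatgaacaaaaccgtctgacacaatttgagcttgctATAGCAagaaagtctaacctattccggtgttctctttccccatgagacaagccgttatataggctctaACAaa
Snora61: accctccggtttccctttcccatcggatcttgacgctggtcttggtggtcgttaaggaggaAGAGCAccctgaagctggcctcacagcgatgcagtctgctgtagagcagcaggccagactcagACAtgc
Scarna8: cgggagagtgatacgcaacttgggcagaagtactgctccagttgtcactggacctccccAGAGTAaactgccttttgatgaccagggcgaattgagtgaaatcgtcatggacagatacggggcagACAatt

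These genes lie at chr7:45126864-45126947 (Snord33, minus strand, intron of Rpl13a), chr17:34950952-34951017 (Snord52, minus strand, intron of 1110038B12Rik) and chr2:37400047-37400157 (Snord90, minus strand, intron of Rc3h2). Snord92 is at chr17:71631281-71631365 (plus strand, intron of Wdr43) and Snora28 at chr12:111540941-111541067 (plus strand, intron of Eif5). Snora61 is at chr4:132310240-132310369 (plus strand, overlapping an exon of Snhg12) and Scarna8 at chr4:86586453-86586583 (minus strand, intron of Haus6). Among the 117 members matched by symbol, TGATGA stood in the first 30 bases of 46 of 72 Snord sequences (63.9%) and in 0 of 36 Snora sequences. CTGA stood in the last 30 bases of 71 of 72 Snord (98.6%) and 5 of 36 Snora sequences (13.9%). ACA stood in the last 8 bases of 34 of 36 Snora (94.4%) and 6 of 72 Snord sequences (8.33%), all searched on the RNA strand. Of the 9 Scarna sequences 4 held both TGATGA and CTGA in those windows and 4 held ACA in theirs. The sequences thus followed the class names for Snora and, for the D box, for Snord members.

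The unit of the values is not stated; it was inferred from the table to be FPKM, in which fragments are set on the length of the row and on sequencing depth. The 118 members held 73.8% and 76.7% of the summed FPKM in lymphoid libraries 1 and 2 and 60.5% in the tumour library. Snord members alone held 65.1%, 68.9% and 54.1%, against 7.87%, 6.84% and 5.74% for Snora and 0.87%, 0.88% and 0.64% for Scarna members. Snord33 by itself held 8.80%, 12.2% and 7.95%. The FPKM of short rows carries a large length correction, described below, so these are not shares of the fragments sequenced. The 87 members tested whose fragments could be estimated summed to 46806, 49997 and 5088 fragments. The estimated depths were 11380000, 15660000 and 3270000 fragments. FPKM values were divided by median-of-ratios factors (1.29, 1.33 and 0.58), which centre the typical gene, before libraries were compared.

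Rows listed at exactly 0 were few. Of 73 Snord rows, 9 and 8 were at 0 in the lymphoid libraries and 13 in the tumour library. Of 36 Snora rows 1, 1 and 2 were at 0, and of 9 Scarna rows 1, 0 and 2. Over the 118 members the shares at 0 were 9.32%, 7.63% and 14.4%. Over all 23337 symbols they were 31.7%, 18.7% and 21.7% in lymphoid libraries 1 and 2 and tumour. The rows listed at 0 in all 3 libraries were Snord118, Snord123, Snord14a, Snord14c, Snord14d, Snord64, Snord93, Snord98 and Snora35. Snord118 (U8) and the Snord14 family (U14) serve ribosomal RNA processing in every cell, so a 0 in these files may not mean that the RNA was lacking. Another 8 rows were at 0 in the tumour library and above 0 in at least 1 lymphoid library: Snord19, Snord37, Snord43, Snord53, Snord92, Snora47, Scarna9 and Scarna10. Among all 23337 symbols 2684 had this pattern. The tumour library was also the shallowest, at an estimated 3270000 fragments against 11380000 and 15660000, and the part of depth in these zeros was not tested.

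The scaled FPKM of all 3 classes lay below both lymphoid libraries for most rows, but this direction depended on the measure and is given below in fragments as well. Over the 65 Snord rows with a mean of at least 1 FPKM the median was 3749 and 4325 scaled FPKM in the lymphoid libraries and 1508 in the tumour library. Over the 35 Snora rows it was 1173 and 1086 against 506.3, and over the 9 Scarna rows 321 and 404 against 170. In scaled FPKM the lowest class in every library was Scarna and the highest was Snord. The order of Snord and Snora also depended on the measure. Among rows with estimated fragments, the median was 149.5, 139 and 18 fragments for Snord and 324, 276 and 25 for Snora. For Scarna rows it was 77.5, 68 and 7.5. These fragment numbers are not set on row length.

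**Figure D1:**
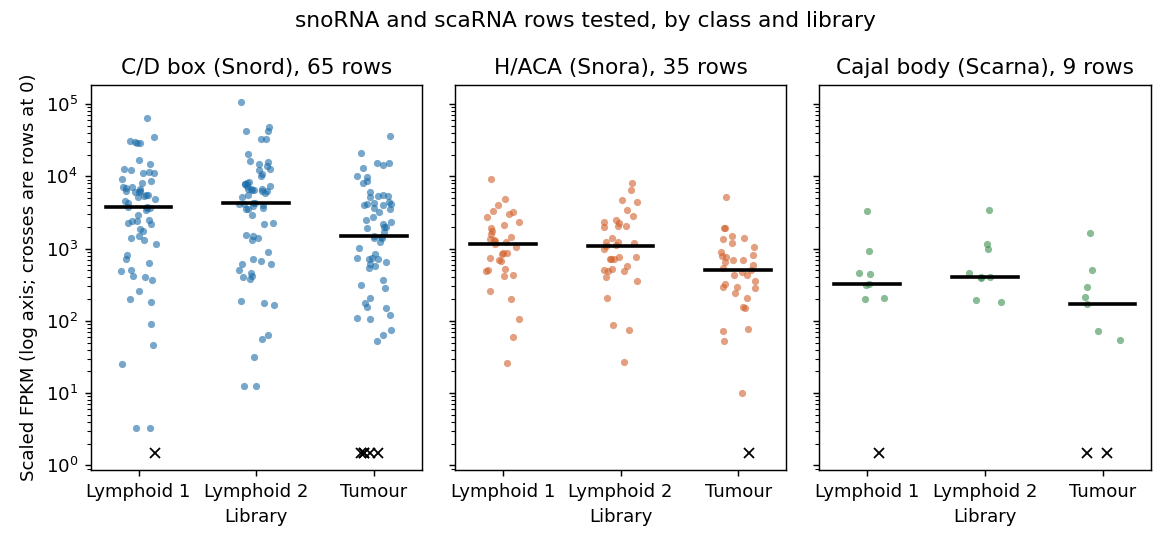
Scaled FPKM (log axis) of the 109 rows tested, by class and library. Each point is 1 row, black bars are medians and crosses are rows at 0. The tumour medians (1508, 506.3 and 170 scaled FPKM) lie below both lymphoid medians in each class, a direction that the Snord rows lose when fragments are set on row length.

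The difference was tested with limma on log2(scaled FPKM + 1) over 9800 genes, with Benjamini-Hochberg adjustment over all of them and calls at an adjusted p under 0.05. Its spread comes from the lymphoid pair (1 residual degree of freedom), and the tumour library is assumed to vary like them. Among all genes 12.7% were called higher and 9.17% lower in tumour, while 42.5% lay below and 41.3% above both lymphoid libraries. Of 65 Snord rows 3 were called higher and 35 lower, with 57 below and 5 above both lymphoid libraries. Of 35 Snora rows 0 were called higher (0 also at an unadjusted p under 0.05) and 25 lower, with 35 below both. Of 9 Scarna rows 0 were called higher (0 unadjusted) and 7 lower, with 8 below both.

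The median log2 difference, tumour minus lymphoid, was -1.14 for Snord, -1.24 for Snora and -1.07 for Scarna rows, beside -0.01 over all genes tested. Against lymphoid library 1 alone the medians were -1.02, -1.18 and -1.03, and against library 2 alone -1.30, -1.21 and -1.24. With the 5 rows at 0 in tumour that could be counted in fragments set to a floor of 3 fragments, they were -1.13, -1.21 and -1.06. Factors computed from the snoRNA and scaRNA rows themselves took the medians to -0.01, -0.11 and 0.06. Such factors centre the typical member near 0 by construction, so these values are no test of the direction. Without scaling limma called 1 Snord row higher and 60 lower, where 4.74% and 77.8% of all genes were called higher and lower. The medians of the 3 classes lay close together, and the difference between classes was not tested.

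The short rows rest on a large length correction, which differed between libraries. At many row lengths (RefSeq, GRCm38.p6) the deposited values of the rows of that length were whole multiples of a common unit, within a relative tolerance of 5e-05. That unit was taken as the FPKM of 1 fragment. It was found at 15 row lengths in lymphoid library 1 (40 rows), at 23 in library 2 (53 rows) and at 31 in the tumour library (60 rows), and a smooth curve gave the other lengths, where estimates need not be whole. For a row of 59 nt, such as Snord52, 1 fragment was worth 59.5, 76.1 and 90.1 FPKM in lymphoid libraries 1 and 2 and tumour. For a row of 118 nt, such as Scarna8, it was worth 3.77, 3.96 and 8.89 FPKM. Set against the estimated depths, these values give the effective length, the number of positions at which the program let a fragment start.

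At 59 nt the effective length was 1.48, 0.84 and 3.39 nt, and at 118 nt it was 23.3, 16.1 and 34.4 nt. In the tumour library it was thus larger by 1.20 and 2.02 on the log2 scale at 59 nt, by 0.88 and 1.60 at 88 nt and by 0.56 and 1.09 at 118 nt. A program assigns a longer effective length to a library whose fragments it takes to be shorter, and it divides by it. The FPKM of a short row in tumour was therefore divided by more than in the lymphoid libraries. Whether the fragments of the tumour library were in fact shorter was not tested.

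**Figure D2:**
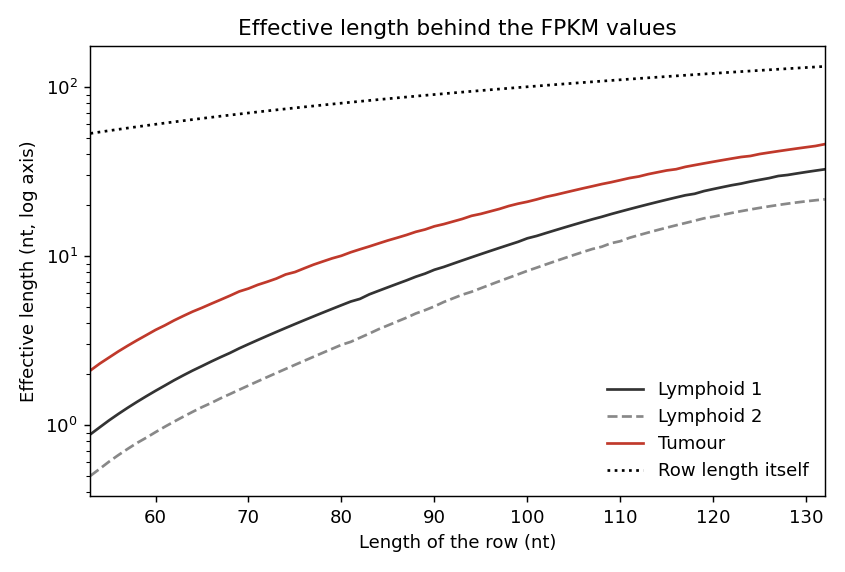
Effective length (nt, log axis) against row length (nt) in each library, from the FPKM of 1 fragment and the estimated depth; the dotted line is the row length itself. The tumour curve lies above both lymphoid curves at every length drawn, and the gap is widest at the short end (3.39 against 1.48 and 0.84 nt at 59 nt).

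Row lengths were short for the RNAs they stand for. The median RefSeq length was 68 nt for Snord, 119.5 nt for Snora and 118 nt for Scarna rows, against GENCODE medians of 80, 132 and 140 nt. The row was shorter than the GENCODE gene for 94 of 117 members, and 51 were shorter than the 75 bp read. The Snord90 row spans bases 30 to 97 of the sequence above and leaves out its C box, and the Snora61 row spans bases 68 to 129 of 130 and leaves out the H box match.

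Fragments could be estimated for 92 members of 53 to 132 nt with 1 row each, of which 87 passed the filter on low values. Their median was 171 and 157 fragments in the lymphoid libraries and 19 in tumour, where 30 of the 87 had fewer than 10. For 13 members beyond 119 nt the curve of lymphoid library 2 was extended past the longest length found. A straight line would differ from it there by up to 0.25 on the log2 scale. Among these members are Snord22, Snora21, Snora28, Snora47, Snora62 and Scarna3b. Beyond 127 nt, as for Snora21 and Snora62, the curve of lymphoid library 1 was extended too (up to 0.08). The 54 Snord rows summed to 33948, 37564 and 4064 fragments, the 27 Snora rows to 12370, 11962 and 977, and the 6 Scarna rows to 488, 471 and 47. To compare libraries without the library's own effective length, fragments were set on depth, row length and the same scaling factors, and the test was repeated over all genes, of which 13.5% were called higher and 9.02% lower.

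That measure leaves out any correction for fragment length, so it would favour short rows in a library whose fragments were shorter. Which measure is nearer the RNA levels was not tested. On fragments the Snord rows no longer lay lower as a class. Of 54 Snord rows with fragments 5 were called higher and 3 lower, with a median log2 difference of 0.31 against -1.15 in FPKM, and 14 lay below and 26 above both lymphoid libraries. Against the lymphoid libraries singly the fragment median was 0.00 and 0.64. Of 27 Snora rows 0 were called higher (0 unadjusted) and 2 lower, the median was -0.32 against -1.26 in FPKM, and 13 lay below both. Against the lymphoid libraries singly the Snora fragment median was -0.67 and 0.02, so it depended on which library was used. Of 6 Scarna rows 0 were called higher (0 unadjusted) and 2 lower, with a median of -0.21 against -1.06, or -0.42 and 0.01 against the lymphoid libraries singly. Over all genes 42.0% lay below and 41.7% above both on this measure.

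Of the 58 members with fragments that were called lower in scaled FPKM, 30 also lay below both lymphoid libraries in fragments, 7 were called lower there, and 10 lay above both. Those 10 were Snord34, Snord35b, Snord47, Snord49a, Snord57, Snord110, Snora20, Snora61, Scarna2 and Scarna17. Of the 59 members with fragments that were called in either direction, 23 rested on fewer than 10 tumour fragments. The Poisson error of the tumour count could be added to the standard error for the 87 members with fragments; the other 22 tested, of which 2 were called higher and 9 lower without it, could not be tested this way. In scaled FPKM the fall was still called in 2 of 54 Snord, 0 of 27 Snora and 1 of 6 Scarna rows, where 3.49% and 0.0763% of 9177 genes were called higher and lower. These were Snord92, Snord19 and Scarna10, all listed at 0 in tumour, and at an unadjusted p under 0.05 limma gave 25, 21 and 1 lower. In fragments with that error limma called 0 of these 87 members in either direction, where 3.89% and 0.0872% of the 9177 genes were called, and 4 were higher and 5 lower unadjusted.

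The measures also differed in how the difference went with length. Across 82 members above 0 in tumour, Spearman's rho between row length and the log2 difference was -0.07 in scaled FPKM and -0.55 in fragments. Within the classes it was weaker in fragments, at -0.26 over 51 Snord and -0.50 over 26 Snora rows, against 0.01 and -0.14 in FPKM. These points share their libraries and are not independent replicates. In fragments the rows near 60 nt lay mostly above 0 and those near 120 nt mostly below it, while in FPKM both lay near -1. The 12 members tested that were longer than 132 nt, for which no fragments were estimated, all lay below both lymphoid libraries in scaled FPKM, at a median of -1.13 (range -2.65 to -0.26), and 6 of them were called lower.

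**Figure D3:**
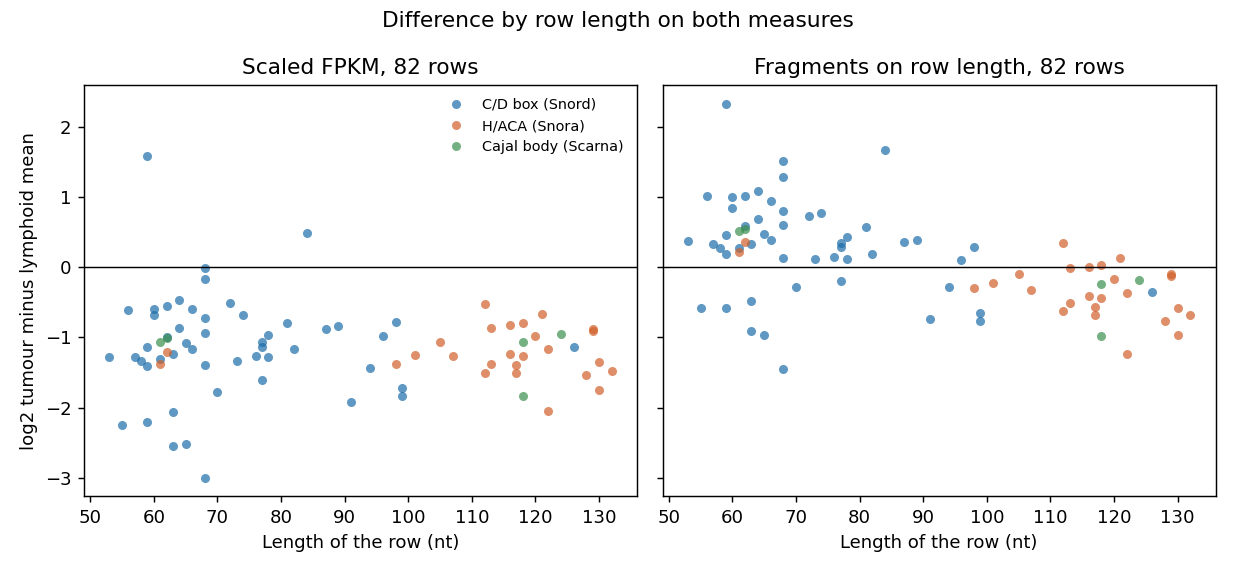
Log2 difference, tumour minus lymphoid mean, against row length (nt) for 82 members, in scaled FPKM (left) and in fragments on row length (right); colours are the classes. The points lie near -1 at all lengths on the left (rho -0.07) and fall from above 0 to below 0 with length on the right (rho -0.55).

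The most abundant C/D box RNA was Snord33, cut with Snord32a, Snord34 and Snord35a from introns of the ribosomal protein gene Rpl13a; the 4 are also known from the response to lipid stress. Snord33 stood at 63410 and 105550 scaled FPKM in the lymphoid libraries and 36520 in tumour, from an estimated 5196, 7227 and 756 fragments. Its log2 difference was -1.16 ± 0.38 (SE; limma, adjusted p = 0.088) in FPKM and 0.19 ± 0.28 (adjusted p = 0.67) in fragments. Neither passed the test, and the direction turned. The lymphoid libraries themselves differed more from each other in FPKM than the fragment numbers on depth did.

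The other Rpl13a members behaved alike. Snord32a stood at 30894, 42385 and 20817 scaled FPKM (log2 difference -0.80 in FPKM and 0.57 in fragments). Snord34 stood at 12109, 15638 and 6154, called lower in FPKM (log2 -1.16, limma adjusted p = 0.041) but at 0.38 in fragments. Snord35a stood at 2900, 4155 and 1943, not called on either measure (-0.84 and 0.39). Snord35b, which is not an Rpl13a member, stood at 1144, 1298 and 658 (-0.89, limma adjusted p = 0.0496, and 0.37 in fragments). In FPKM the tumour library was the lowest for all 5 and did not overlap the lymphoid pair, while in fragments all 5 differences were above 0. Over all genes 42.5% lay below both lymphoid libraries in FPKM.

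Snord22 (U22), which takes part in processing the small ribosomal subunit RNA and is cut from Snhg1, had the most fragments, with 12900, 13432 and 1109. Its row of 126 nt stood at 30408, 32798 and 14341 scaled FPKM. The log2 difference was -1.14 ± 0.26 in FPKM (limma adjusted p = 0.035) and -0.36 ± 0.32 in fragments (adjusted p = 0.47), so both measures put it lower and only FPKM passed. Snord17, the longest Snord row at 221 nt, stood at 6636, 6614 and 2767 scaled FPKM (-1.26, limma adjusted p = 0.021). Snord104 (35510, 42012 and 15330; -1.33 in FPKM, 0.12 in fragments) and Snord55 (28621, 48328 and 15310; -1.28 and 0.12) turned direction like Snord33. Snord47, from the growth-arrest gene Gas5, stood at 4623, 5266 and 2345 scaled FPKM and was called lower in FPKM (log2 -1.07, limma adjusted p = 0.036) but was at 0.47 in fragments.

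Snord90 was the C/D box row above 0 in all libraries with the largest fall. It stood at 5229 and 6455 scaled FPKM in the lymphoid libraries and 727 in tumour, from 205, 205 and 8 fragments. The log2 difference was -3.00 ± 0.26 in FPKM (limma adjusted p = 0.0018) and -1.46 ± 0.28 in fragments (adjusted p = 0.015). On depth and the scaling factors the tumour library held 0.37 times the lymphoid fragments (95% exact interval 0.16 to 0.73, counting error only). Snord90 therefore fell on both measures, although the call was lost when the counting error was added (adjusted p = 0.065 in FPKM and 0.29 in fragments).

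Among Snord rows listed at 0 in tumour, Snord92 had the most lymphoid fragments, 43 and 45 (498 and 621 scaled FPKM). The interval of its tumour to lymphoid ratio reached up to 0.80, from counting error only. Snord19 (421 and 610 scaled FPKM) had only 6 and 7 lymphoid fragments, and the interval of its ratio reached 6.2, so fragments alone did not show a difference at this depth. Its call with counting error added, given above, rests on the fitted change against 0. Snord53 was listed at 33.01 and 41.99 deposited FPKM, which is the worth of 1 fragment at its 68 nt in each lymphoid library, and Snord43 (48 nt, 811 and 503 scaled FPKM) was too short to convert. The test called all 4 lower, but a fitted change against a row listed at 0 depends on the pseudocount, so no fold change is given.

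The 3 Snord rows called higher in FPKM were Snord52, Snord116 and Snord116l2. Snord52 stood at 46.0, 57.1 and 155 scaled FPKM (log2 1.58, limma adjusted p = 0.0078), but each of these values is 1 fragment. The interval of the ratio of its fragments ran from 0.16 to 180, from counting error only. Snord116 belongs to the imprinted Prader-Willi cluster, known for its expression in neurons, and stood at 3.28, 12.5 and 64.7 scaled FPKM (log2 3.11 ± 0.63, limma adjusted p = 0.024). Snord116l2 shared both lymphoid values and stood at 52.97 in tumour (2.83, adjusted p = 0.032). Both are near-identical copies of a repeated gene, so how the fragments were split among copies is uncertain, and their fragments were not estimated. The deposited values were 4.25, 16.7 and 37.5 FPKM for Snord116 and 4.25, 16.7 and 30.7 for Snord116l2. At 90 nt, the RefSeq length of Snord116l2, 1 fragment was worth 10.6, 12.7 and 20.5 FPKM. At that length such values rest on very few fragments.

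In fragments the Snord rows called higher were Snord52, Snord82, Snord61, Snord73a and Snord88c. Snord82, from the nucleolin gene Ncl, had 147, 138 and 44 fragments (log2 1.51 ± 0.30, limma adjusted p = 0.018) against a log2 difference of -0.01 in FPKM. Snord61, from Rbmx, had 145, 146 and 32 fragments (1.02, limma adjusted p = 0.049, against -0.56 in FPKM). Snord73a had 16, 13 and 4, and Snord88c 8.3, 13.5 and 4. The fragment intervals, from counting error only, lay above 1 for Snord82 (2.062 to 3.995 times the lymphoid level) and Snord61 (1.39 to 2.98). Those of Snord73a and Snord88c did not. With counting error added to the test none of these rows was called.

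Among H/ACA RNAs Snora81, from an intron of the translation factor gene Eif4a2, was the most abundant, at 9074, 8156 and 5157 scaled FPKM (log2 difference -0.74, limma adjusted p = 0.097). Snora21, from Rpl23, stood at 4935, 6505 and 1946 scaled FPKM from 2186, 2765 and 156 fragments, the highest of the class. It was called lower in FPKM (-1.54 ± 0.28, limma adjusted p = 0.018) and stood at -0.77 ± 0.26 in fragments (adjusted p = 0.086). Its tumour fragments were 0.59 times the lymphoid level (exact interval 0.50 to 0.69, counting error only, with lymphoid fragments from the extended curves).

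Snora28 was called lower on both measures. It stood at 1045, 987 and 246 scaled FPKM, from an estimated 403, 370 and 17.5 fragments. The log2 difference was -2.04 ± 0.22 in FPKM (limma adjusted p = 0.0034) and -1.24 ± 0.31 in fragments (adjusted p = 0.036), and the fragment ratio was 0.44 (exact interval 0.26 to 0.70, counting error only). Its host Eif5, a translation initiation factor gene, stood at 30.4, 30.2 and 31.8 scaled FPKM (log2 0.07). With counting error added the adjusted p was 0.074 in FPKM and 0.26 in fragments.

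Snora62, from the ribosomal protein gene Rpsa, followed at 522, 489 and 150 scaled FPKM (-1.75, limma adjusted p = 0.0052, and -0.97, adjusted p = 0.076, in fragments), with a fragment ratio of 0.50 (0.25 to 0.87). The longer rows Snora52 (486, 501 and 77.8; -2.65) and Snora43 (59.1, 75.6 and 10.2; -2.60) had the largest falls of the class above 0 in tumour, in FPKM only. Snora16a stood at 4022, 4750 and 1960 (-1.16) and Snora74a (U19) at 1454, 2269 and 1052 (-0.79, limma adjusted p = 0.15). Snora47 had 11 and 11 lymphoid fragments and was listed at 0 in tumour, with an interval up to 3.4 times the lymphoid level. Snora20 (3371, 4423 and 1491 scaled FPKM) and Snora61 (3032, 3481 and 1399), whose rows are 61 and 62 nt, were called lower in FPKM (-1.37 and -1.21) but stood at 0.21 and 0.36 in fragments.

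Among scaRNAs the highest was Scarna2, transcribed from its own gene and a guide for the U2 spliceosomal RNA, at 3371, 3440 and 1627 scaled FPKM (log2 -1.07, limma adjusted p = 0.032). In fragments it had 84.8, 70.0 and 12.0 and a log2 difference of 0.51, so its direction turned; its row is 61 nt. Scarna17 turned likewise, from -1.01 to 0.55, on 25, 25 and 4 fragments. Scarna8 stood at 315, 404 and 170 scaled FPKM (-1.06 in FPKM, -0.24 in fragments) and Scarna3b at 443, 401 and 217 (-0.96 and -0.18). Scarna3a stood at 204, 196 and 55.3 and was called on both measures (-1.84, limma adjusted p = 0.0033, and -0.98, adjusted p = 0.049), on an estimated 3.6 tumour fragments, with an interval of the fragment ratio from 0.15 to 1.45.

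Scarna10 (U85), which carries both C/D and H/ACA elements, had 21 and 17 lymphoid fragments and was listed at 0 in tumour, with an interval up to 1.9 times the lymphoid level. Scarna9 was at 0 in lymphoid library 1 and in tumour and at 983 scaled FPKM in lymphoid library 2. Scarna6 (248 nt; 207, 185 and 72.1 scaled FPKM) was called lower in FPKM (-1.43, limma adjusted p = 0.0089). Scarna13, at 275 nt the longest row, stood at 321, 390 and 296 (-0.26, limma adjusted p = 0.47).

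The host genes as a group were centred near 0. By GENCODE, 111 of 117 members had a host gene, 94 in an intron and 17 overlapping an exon. The hosts numbered 84, of which 69 were tested, with 4 called higher (5.80%), 6 lower (8.70%; 12.7% and 9.17% over all genes) and a median log2 difference of -0.09. Rpl13a stood at 620, 880 and 752 scaled FPKM (log2 0.03). Of 85 members above 0 in tumour with a tested host, 78 had a lower log2 difference than the host in FPKM, and of 71 with fragments 32 did in fragments. The difference in behaviour between members and hosts thus depended on the measure.

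**Figure D4:**
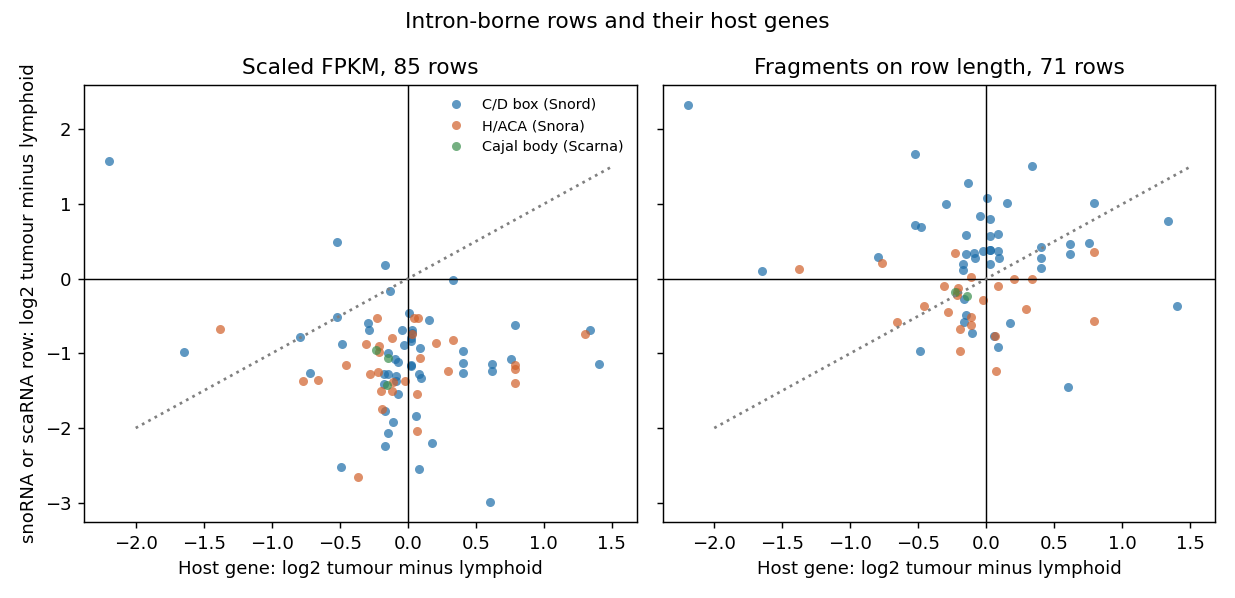
Log2 difference of each member (vertical) against that of its host gene (horizontal), in scaled FPKM (left, 85 rows) and in fragments on row length (right, 71 rows); the host is in scaled FPKM in both, and the dotted line marks equal differences. In FPKM 78 of 85 rows lie below the line, and in fragments 32 of 71.

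Members of 1 host did not always match. Snord19 and Snord69 share Gnl3, and Snord69 stood at -2.20 in FPKM and -0.59 in fragments. Snord11 and Snord70 share Nop58 and stood at -2.55 and -1.28 in FPKM and at -0.91 and 0.37 in fragments. Snord11 had 21, 16 and 1 fragments and Snord70 had 49, 37 and 6. The intervals of their fragment ratios, from counting error only, overlapped (0.013 to 3.01 and 0.47 to 2.97). The Rpl23a members Snord42a, Snord42b and Snord4a ranged from -2.25 to 0.18 in FPKM, on as few as 1 tumour fragment for Snord42b. The Snhg12 members Snora16a, Snora44, Snora61 and Snord99 ranged from -1.40 to -0.62 in FPKM, while Snhg12, called higher, stood at 0.79 (limma adjusted p = 0.043). In fragments Snora44 stood at -0.56, Snora61 at 0.36 and Snord99 at 1.01, so the direction turned for the latter pair. Members that overlap a host exon can share fragments with it.

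Genes for the proteins that build and process these RNAs showed no common direction. Of 27 tested, limma called 3 higher (11.1%) and 2 lower (7.41%), shares near those of all genes (12.7% and 9.17%), with a median log2 difference of 0.01. With counting error added, 0 of the 25 that could be tested were called in either direction (4 higher and 0 lower unadjusted). Of the 4 C/D core proteins 0 were called: the methylase Fbl stood at 18.8, 19.6 and 20.4 scaled FPKM and Nop56 at 20.01, 20.15 and 31.36 (log2 0.62, limma adjusted p = 0.054). Of the 4 H/ACA core proteins 0 were called, with the pseudouridine synthase Dkc1 at 5.90, 6.87 and 6.40. At an unadjusted p under 0.05 limma gave 5 higher and 5 lower over the 27.

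The 5 genes called are given as values. Higher were Dbr1, which opens intron lariats (2.93, 3.25 and 6.78 scaled FPKM; log2 0.93, limma adjusted p = 0.012), Smn1, a protein of the Cajal body and of spliceosomal particle assembly (7.38, 7.95 and 14.8; 0.87, adjusted p = 0.018), and the H/ACA assembly factor Shq1 (1.10, 0.78 and 2.39; 0.81, adjusted p = 0.030). Lower were the assembly factors Znhit3 (3.25, 2.74 and 1.14; -0.90, adjusted p = 0.017) and Naf1 (1.44, 1.39 and 0.52; -0.67, adjusted p = 0.038). In each the tumour library lay outside the lymphoid pair, as it did for most genes (42.5% below and 41.3% above both). The 5 were picked by their calls, so this adds no support.

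The label of the cells was checked against markers. Of 6 CD4 T cell markers 5 were found, summing to 522, 525 and 465 scaled FPKM, and the 4 Th1 markers summed to 97.9, 90.7 and 74.1. Among them Ifng, the interferon gamma gene, stood at 12.9, 12.0 and 4.53 scaled FPKM and was called lower (log2 -1.28, limma adjusted p = 0.0053), while Il12rb2 stood at 11.1, 9.45 and 12.0 (0.21, adjusted p = 0.42). Markers of CD8 T cells summed to 0.56, 0.81 and 5.27 (2 genes), with Cd8b1 called higher (log2 1.82). Myeloid markers summed to 1.39, 1.13 and 7.71 (5 of 6 found), with Itgam called higher (log2 1.43). Melanoma markers summed to 0.97, 1.10 and 2.22 (5 genes, Mlana at 0 in all libraries). B cell markers summed to 0.70, 0.53 and 0.65 (4 genes, Ms4a1 at 0 in all) and fibroblast markers to 0.04, 0.16 and 0.22 (4 genes, Col3a1 at 0 in all). NK markers summed to 23.6, 20.3 and 14.9 (2 genes, carried by Klrb1c), though Ncr1 stood at 0, 0.17 and 1.47. Endothelial markers summed to 9.76, 8.87 and 9.04 (3 genes, carried by Pecam1), though Cdh5 stood at 0, 0.02 and 0.78. Kdr likewise stood at 0, 0.04 and 0.56. Ncr1, Cdh5 and Kdr were too low to be tested. Erythroid markers summed to 1.63, 1.38 and 0.55 (2 of 3 found), with Hba-a1 called lower. With counting error added all these marker calls were lost. The limma adjusted p was then 0.21 for Ifng, 0.079 for Cd8b1, 0.059 for Itgam and 0.74 for Hba-a1. The part of these marker differences in the differences above was not tested.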

How the data were processed

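RNA was measured in 2 lymphoid libraries and 1 tumour library of CD4+ T cells. Per the labels' protocols, total RNA of 300000 cells (12 µl) was depleted of ribosomal RNA, made into stranded libraries and sequenced in 75 bp pairs. The submitters' processing notes name mm10, kallisto and DESeq2, with no version or role; the program behind the values is not given in the sources used here. FPKM is the unit assigned to the deposited values, from the Cufflinks-style column names in the file headers and from library sums that differ between libraries.

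Scaled FPKM was tested with limma 3.58.1 in R 4.3.3 (trend, two-sided, pseudocount 1, mean of at least 1 FPKM, Benjamini-Hochberg over 9800 genes). Relative depth came from the ratio most shared among low values, and the FPKM of 1 fragment at each row length from whole multiples joined by a smooth curve, dropping lengths more than 1.5% off. Fragments are estimates, and exact intervals are at 95%. Fragment ratios and their intervals are set on depth and the median-of-ratios factors. Fragments were not estimated outside 53 to 132 nt, for symbols with several rows or for rows with no RefSeq length. The fits were tested on simulated data.

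Rows to name were the 5 most abundant and the 5 with the largest called rise or fall in each class, up to 3 rows at 0 in tumour, and a list of known snoRNAs; Snord82, Snord61, Snord73a, Snord88c, Snord42b, Snord4a, Snord69, Snord11, Snord70, Snord99 and those listed by a count were named after their values were seen. The members and lists were chosen with earlier results of these data known.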

Additional observations from a re-analysis of the deposited data

How the results depend on the processing

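The class medians and calls depended on the scaling and on the length correction. Values below are given for Snord, Snora and Scarna rows in turn. With no scaling the medians were -2.32, -2.41 and -2.25, with 1 Snord row called higher, 60, 35 and 8 rows lower, and 465 and 7620 of all genes called higher and lower. Scaling by library totals gave -0.36, -0.46 and -0.29, 6 Snord rows higher, 24, 9 and 3 rows lower, and 4370 and 279 of all genes. The members themselves held 73.8%, 76.7% and 60.5% of those totals in lymphoid libraries 1 and 2 and tumour, which draws their differences toward 0. Factors from the snoRNA and scaRNA rows alone, which centre the typical member near 0 by construction, gave -0.013, -0.11 and 0.062. Limma then called 9, 3 and 1 rows higher, 13, 5 and 2 lower, and 8242 and 221 of all genes. Factors from all rows above 0, chosen after seeing the data, gave -1.43, -1.53 and -1.36, and 1926 of all genes lower.

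Fragments on row length, also chosen after seeing the data and with unconverted rows left in FPKM, gave 0.27, -0.51 and -0.26, with 7 Snord rows higher and 8, 5 and 3 rows lower. With counting error added, which the 22 members without fragments could not be given, these medians were the same, 0 Snord rows were called higher and 0, 0 and 0 lower, and 357 and 8 of all genes were called. Counting error on scaled FPKM, over the 87 members with fragments, left 0 Snord rows higher and 2, 0 and 1 lower, and 320 and 7 of all genes. A mean of at least 5 FPKM left 1 Snord row higher and 23, 14 and 3 lower, and 211 and 191 of all genes; no filter gave 0 Snord rows higher, 27, 18 and 4 rows lower and 7364 of all genes higher. Leaving out either lymphoid library allows no call, since no residual degree of freedom is left; the Snora median then ranged from -1.21 to -1.18, and the Scarna median from -1.24 to -1.03.

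Of the rows named by the rule, these changed direction. In fragments, with or without counting error, the log2 differences became 0.55 for Scarna17, 0.51 for Scarna2, 0.21 for Snora20, 0.36 for Snora61, 0.12 for Snord104, 0.57 for Snord32a, 0.19 for Snord33, 0.38 for Snord34, 0.39 for Snord35a, 0.37 for Snord35b, 0.47 for Snord47 and 0.12 for Snord55. Among rows named after their values were seen, those that turned in fragments were Snord61 (1.02), Snord82 (1.51), Snord73a (1.29), Snord70 (0.37), Snord49a (0.59), Snord57 (0.34), Snord110 (0.46) and Snord99 (1.01). With factors from the members alone they became 0.87 for Scarna13, 0.11 for Scarna17, 0.063 for Scarna2, 0.17 for Scarna3b, 0.062 for Scarna8, 0.34 for Snora74a, 0.39 for Snora81, 0.33 for Snord32a, 0.29 for Snord35a, 0.24 for Snord35b and 0.055 for Snord47. With library totals they became 0.52 for Scarna13 and 0.041 for Snora81. The cause of each change of direction was not tested beyond what each setting does by construction. Pseudocounts of 0.1 and 5, the sum of rows of a symbol, no mean-variance trend and factors without small RNA rows left every class count within 1.5 times its value and every class median within its spread.

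No paired analysis was possible because the single tumour library carries no number that it shares with a lymphoid library as a pair. Depth limits the tumour values most, where 30 of 87 members had fewer than 10 fragments.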

Other observations

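Other small non-coding RNAs were listed beside the members, from a list chosen with earlier results known. Rmrp, the RNA of the mitochondrial RNA processing ribonuclease, which also cuts the ribosomal precursor, stood at 14480, 13190 and 8770 scaled FPKM in lymphoid libraries 1 and 2 and tumour (log2 -0.66, limma adjusted p = 0.13). Rpph1, the RNA of ribonuclease P, stood at 9785, 15890 and 7594 (-0.72, limma adjusted p = 0.21). The minor spliceosome RNA Rnu11 stood at 8355, 8489 and 3543 and was called lower (-1.25, limma adjusted p = 0.022), and Rnu12 stood at 7121, 6651 and 3767 (-0.87, adjusted p = 0.061). With counting error added Rnu11 was no longer called (limma adjusted p = 0.094). Terc, the H/ACA RNA of telomerase, stood at 13.2, 12.3 and 8.33 (-0.56, adjusted p = 0.063). The vault RNA Vaultrc5 stood at 312, 269 and 294 (0.02). Rnu73b stood at 4302, 4604 and 2833 (-0.65, limma adjusted p = 0.12), and Rnu6 and Rnu7 were at 0 in all 3 libraries. The low row Rprl1 was called higher, at 0.75, 1.19 and 2.92 (log2 1.00, limma adjusted p = 0.021). Rprl2 stood at -0.105 and Rprl3 at 0.21, neither called. These RNAs were compared in scaled FPKM, which includes the program's length correction.

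Rows of 633 miRNA genes were in the table, of which 77 were tested. Of these, 21 were called higher (27.3%, beside 12.7% of all genes) and 13 lower (16.9%, beside 9.17%). The median log2 difference was -1.15 in scaled FPKM against the lymphoid mean. Against either lymphoid library alone the median was 0, and 20 rows lay below and 23 above both. In fragments on row length 24 were called higher (31.2%, beside 13.5% of all genes) and 10 lower (13.0%, beside 9.02%). Counting error could be added for 73 of the miRNA rows. With it limma called 1 higher and 0 lower in scaled FPKM, where 3.49% and 0.0763% of all genes were called. In fragments it called 2 higher and 0 lower, beside 3.89% and 0.0872%.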
